A study of Mus musculus with 6 samples.

Results

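Nephronectin, encoded by Npnt, is a matrix protein that cells bind through an integrin made of the alpha8 chain, encoded by Itga8, and the beta1 chain. The genes described here are Npnt, its receptor chain Itga8, the related matrix protein gene Egfl6, and the Fraser complex genes Fras1, Frem1 and Frem2. They are 6 of the 20659 genes that the array measures under a RefSeq symbol, and 7 non-control probes carry them, 2 for Npnt and 1 for each of the others. Npnt was chosen by its array signals, which were much higher in De-HA than in FeMnSi, and the others as its receptor, paralog and complex partners, so the De-HA against FeMnSi values of all 6 are given as a description and were not tested.

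The study grew cells of the mouse pre-osteoblast line MC3T3-E1 for 3 days in 24-well plates on metal scaffolds. In the FeMnSi group (n = 3) the scaffold was the original one, and in the De-HA group (n = 3) it had been dealloyed and coated with bioactive material. RNA of each sample was labelled with Cy3 and hybridised to 1 Agilent array. The cells are 1 established line, and the labels name no transgene and do not say whether the 3 replicates of a group came from different cultures; every p-value below therefore measures only the spread among these arrays, which may be technical. Values of the 3 arrays of a group are given in the order of replicates 1, 2 and 3.

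Nephronectin carries EGF-like repeats, an RGD sequence (arginine, glycine, aspartate) that integrins recognise, and a MAM domain. It was described in osteoblasts, where it promotes their adhesion and differentiation, and in the embryonic kidney, where its binding to the alpha8 beta1 integrin is needed for Gdnf expression and outgrowth of the ureteric bud. Fras1, Frem1 and Frem2 encode very large basement membrane proteins that assemble into 1 complex, which anchors nephronectin beneath epithelia, and Egfl6 encodes a second matrix ligand of alpha8 beta1 with the same kinds of domain.

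The sequences upstream of the outermost annotated starts of Npnt and Itga8 are shown because these are the ligand and receptor genes whose signals were higher on every De-HA array. They are RefSeq sequences of build GRCm38.p6, on the minus strand and written 5′ to 3′, and capitals mark matches to the SP1 motif GGGCGG on either strand. Npnt covers chr3:132950292-132950541 and Itga8 covers chr2:12301986-12302194.
Npnt: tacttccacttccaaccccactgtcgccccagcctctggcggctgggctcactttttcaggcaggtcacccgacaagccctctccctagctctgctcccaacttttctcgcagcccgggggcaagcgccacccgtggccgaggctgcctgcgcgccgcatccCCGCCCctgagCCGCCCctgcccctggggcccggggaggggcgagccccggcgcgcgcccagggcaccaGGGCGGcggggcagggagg
Itga8: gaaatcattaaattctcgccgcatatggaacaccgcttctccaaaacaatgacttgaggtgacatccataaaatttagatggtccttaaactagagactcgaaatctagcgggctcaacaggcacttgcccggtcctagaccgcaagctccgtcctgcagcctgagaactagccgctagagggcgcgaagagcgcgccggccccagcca
The Npnt window was rich in G and C (74.0%, with 21 CpG pairs, against medians of 52.4% and 6.0 over all 32536 promoter windows of 250 bases). It held 3 SP1 matches, at 88, 77 and 19 bases before the gene's start, and 33.0% of windows of that length held at least 1. The Itga8 window of 209 bases was 53.1% G and C with 14 CpG pairs, against medians of 51.7% and 4.0 for that length. It held no SP1 match, while 26.7% of windows of that length held at least 1. On both strands, neither window held the RUNX motif ACCACA, present in 14.0% of windows of the Npnt length and 12.1% of those of the Itga8 length. The TEAD motif CATTCC (12.6% and 10.96%), the HIF motif ACGTG (16.7% and 13.7%) and the TCF/LEF motif ATCAAAG (3.21% and 2.78%) were not found in either. The same holds for the SMAD motif GTCTAGAC (0.169% and 0.160%), the TATA box letters TATAAA (12.3% and 9.45%) and the AP-1 motif TGACTCA (4.45% and 3.79%). A match, or its absence, describes the letters of these windows and no binding.

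The arrays were of similar brightness: the 75th percentile of the processed signal ran from 582 to 720, 63.3% to 74.3% of probes were well above background, and no spot was saturated. The file headers give 1 scan time for FeMnSi 1 and all 3 De-HA arrays and another for FeMnSi 2 and 3, taken here as slide 1 and slide 2. Slide 2 holds no De-HA array, so a comparison within a slide can set the De-HA arrays against FeMnSi 1 only. Over all 15545 genes tested, limma with Benjamini-Hochberg adjustment called 1669 at an adjusted p under 0.05, which is 10.7%; 6.45% were higher and 4.28% lower in De-HA. Of those called, 60.1% were higher. That share was 43.7% with quantile-normalized values, 37.3% when scaled by the median, 41.1% in the authors' series matrix and 45.3% with normexp background correction. The median log2 difference of all genes was 0.10 with the 75th percentile scaling used here, and 0.00 after quantile normalization. With the slide as a term in the fit, 180 genes passed, or 1.16%. The count without 1 array ran from 227 without FeMnSi 3 to 4615 without FeMnSi 1. Osteoblast markers were present: all 15 listed genes were tested, and 6 were called higher and 1 lower in De-HA, or 46.7% against 10.7% of all genes, with 3 called once the slide was a block.

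**Figure D1:**
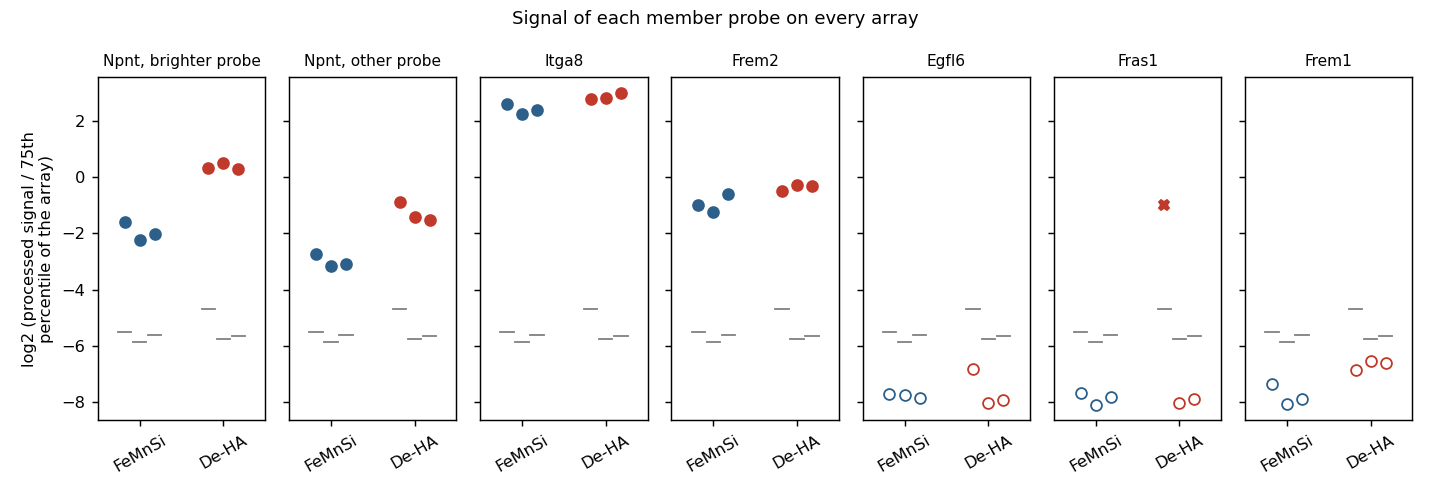
Each panel shows 1 probe, with the log2 of the processed signal divided by the array's 75th percentile on the vertical axis and 1 point per array, FeMnSi in blue and De-HA in red, replicates 1 to 3 from left to right. Filled points were well above background, open points were not, the cross is a spot marked as an outlier, and grey lines give the lowest signal well above background on that array; both Npnt probes, Itga8 and Frem2 lie far above those lines, and Egfl6, Frem1 and the other Fras1 spots lie below them.

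Npnt, the ligand, was the member with the largest difference of those measured. Its brighter probe gave processed signals of 776, 922 and 717 in De-HA and of 216, 153 and 175 in FeMnSi. Every De-HA array lay above every FeMnSi array, as for 25.4% of all genes tested, and FeMnSi 1 was the highest of its group. After scaling, the group means differed 4.99-fold (log2 difference 2.32 ± 0.17 SE, n = 3 per group), with 3.73-fold between the lowest De-HA and the highest FeMnSi array and 6.61-fold between the extremes. Just 1 of the 15545 genes had a larger difference upward. Against FeMnSi 1 alone, the array on the same slide, the log2 difference was 1.97.

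The other Npnt probe gave 335, 244 and 201 in De-HA and 97.6, 79.9 and 82.1 in FeMnSi. Again the groups did not overlap, at 3.30-fold between the means (log2 difference 1.72 ± 0.20 SE, 1.46 against FeMnSi 1 alone). The probes did not order the De-HA arrays alike: relative to the FeMnSi mean, De-HA 1 stood 2.11 higher on the log2 scale by this probe and De-HA 2 and 3 stood 1.59 and 1.47 higher. By the brighter probe the same 3 arrays stood 2.26, 2.44 and 2.25 higher. Both probes are assigned to 1 Npnt transcript in the files, so they do not separate its annotated isoforms.

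Itga8, the receptor chain, was bright and only modestly different. Its processed signals were 4275, 4561 and 4648 in De-HA and 3939, 3380 and 3700 in FeMnSi. The De-HA arrays were all above the FeMnSi arrays, but the gap to FeMnSi 1 was narrow, at 1.14-fold after scaling. The means differed 1.37-fold (log2 difference 0.46 ± 0.13 SE), or by 0.27 against FeMnSi 1 alone. Of all genes, 13.3% had a larger difference upward.

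Frem2, 1 of the 3 Fraser complex genes, was measured on all arrays. Its processed signals were 448, 543 and 470 in De-HA and 327, 305 and 461 in FeMnSi. FeMnSi 3 lay above De-HA 1 before scaling and below it after scaling, and with median scaling the groups overlapped. The means differed 1.51-fold (log2 difference 0.60 ± 0.17 SE, 0.65 against FeMnSi 1 alone). As a background for Npnt, Itga8 and Frem2, 25.4% of all genes tested had every De-HA array above every FeMnSi array, so this separation is common on these arrays and shows nothing particular to these genes.

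Egfl6, Frem1 and Fras1 were not measured above background and have no fold change. For most of these spots the processed signal differs from the background-subtracted one, which was below 0 for many, so no order is read from them. Egfl6 signals were 2.42 to 5.52 in De-HA and 3.06 to 3.35 in FeMnSi, while the lowest signals well above background on these arrays were 11.7 to 23.9. The Frem1 values were 5.32 to 7.07 in De-HA and 2.66 to 3.96 in FeMnSi, all below that limit as well. Fras1 gave 2.50 and 2.44 on De-HA 2 and 3 and 2.64 to 3.17 on FeMnSi arrays. On De-HA 1 its single spot gave 315, but Feature Extraction marked that spot as an outlier and it was left out. Of the Fraser complex, Frem2 alone had a usable signal here. RNA was taken from whole cultures, so a change in the RNA per cell and a change in the share of cells that carry it cannot be told apart for any member.

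**Figure D2:**
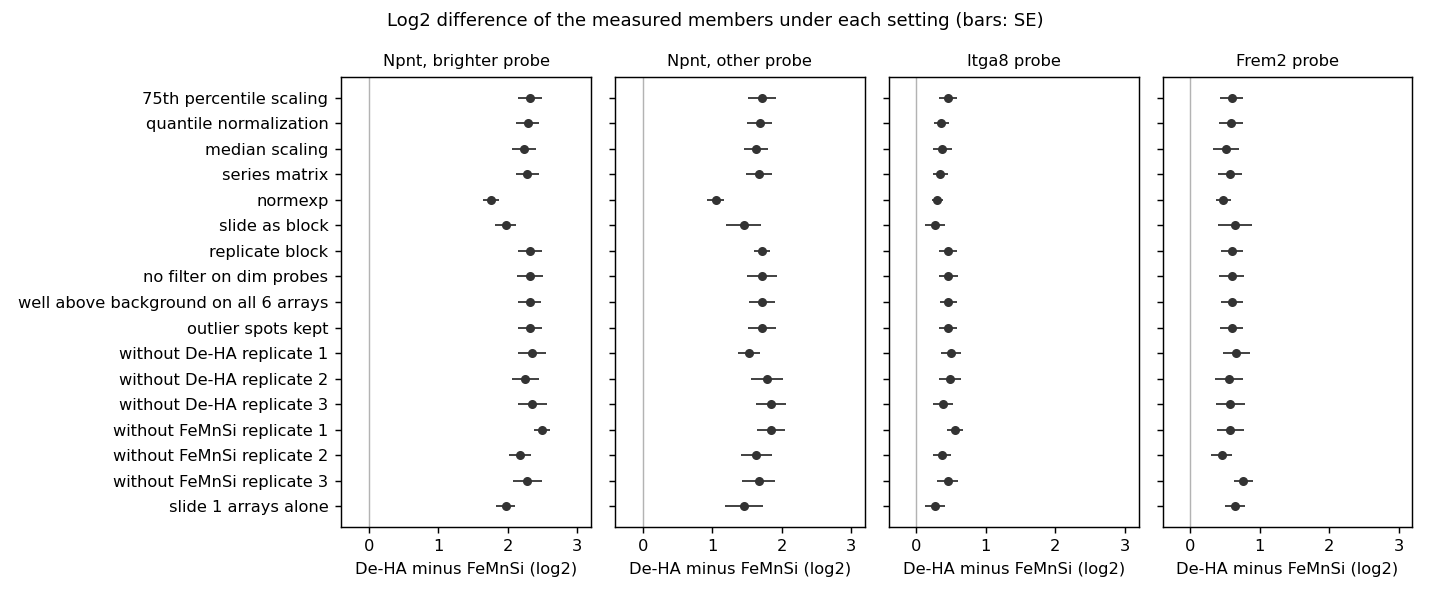
The log2 difference of De-HA minus FeMnSi (horizontal axis, bars are the SE) for the 4 measured member probes under each processing setting (rows). The brighter Npnt probe stays between 1.75 and 2.49, the other between 1.05 and 1.85, Itga8 between 0.27 and 0.55 and Frem2 between 0.46 and 0.77.

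Processing moved the size of these differences, and their direction was the same under the settings plotted. With normexp background correction the Npnt differences were 1.75 and 1.05, and Itga8 gave 0.30. Quantile normalization gave 2.29, 1.68, 0.36 and 0.58 for the brighter and the other Npnt probe, Itga8 and Frem2, and the authors' series matrix gave 2.28, 1.68, 0.34 and 0.57.

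The patterns most like that of Npnt over the 6 arrays were those of Omd, Wif1, Otor, Insc and Slit2. Likeness was the root mean square difference between log2 profiles, each centred on its own mean, and was 0.13 for Omd, 0.24 for Wif1, 0.29 for Otor, 0.33 for Insc and 0.34 for Slit2, against a median of 1.13 over all genes. Omd encodes osteomodulin, a leucine-rich proteoglycan of bone, and its log2 difference was 2.37. Wif1 encodes a secreted Wnt inhibitor (2.03), Insc a spindle orientation adaptor (1.92), Slit2 a secreted guidance ligand (1.69), and Otor gave 1.82. Itga8 and Frem2 were not near Npnt by this measure, at ranks 1767 and 1017 of 15544 genes, with distances of 0.94 and 0.89. The measure weighs the difference between the groups most, which also chose Npnt, and is a description.

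**Figure D3:**
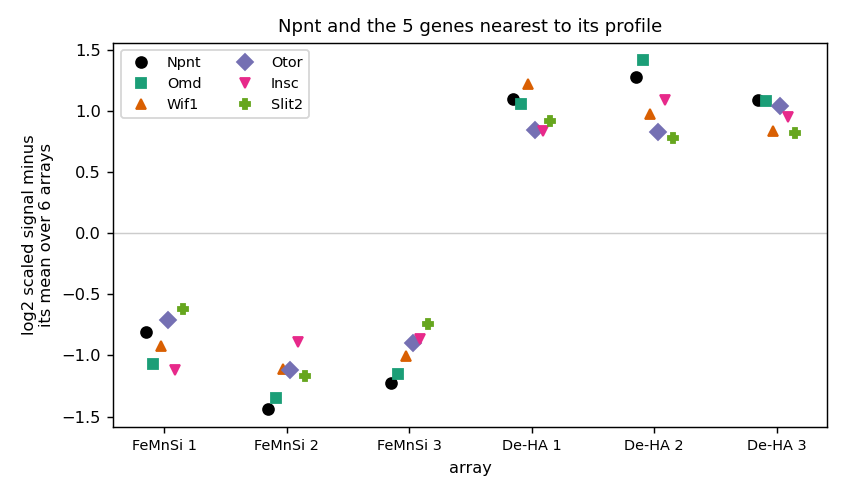
Log2 scaled signal of Npnt and of the 5 genes nearest to its profile, each minus its own mean over the 6 arrays (vertical axis), for every array (horizontal axis). All 6 genes lie below 0 on the FeMnSi arrays and above 0 on the De-HA arrays.

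The partner chain of Itga8 and the other chains of RGD-binding integrins were set beside it. Itgb1, the beta1 chain that pairs with alpha8, gave processed signals of 2364, 2052 and 1996 in De-HA and of 2288, 3515 and 2690 in FeMnSi. The groups overlapped, and the log2 difference was -0.22 ± 0.15 SE (limma adjusted p = 0.304), or -0.02 against FeMnSi 1 alone. By its other probe the difference was -0.33. None of the 8 tested chains of RGD-binding integrins other than Itga8 passed limma's adjusted threshold, against 10.7% of all genes, and 1 had an unadjusted p under 0.05. That one was Itgav, the alpha chain shared by vitronectin receptors (log2 difference 0.23 ± 0.09, adjusted p = 0.132), whose other probe gave 0.42. Itga5, the fibronectin receptor chain, gave 0.36 ± 0.16 (adjusted p = 0.156), and Itgb8 and Itgb6, which pair with alpha-v, gave 0.53 ± 0.23 and 0.29 ± 0.26, the latter with its sign turned when the slide was a block. Both Itgb8 and Itgb6 were dim, with signals of 14.7 to 31.4 and of 17.4 to 32.6, each highest on De-HA 1. Itgb3 (-0.04 ± 0.10) and Itgb5 (-0.09 ± 0.12), the other partners of alpha-v, lay near 0, though the other Itgb3 probe gave -0.20. The sign of Itgb3 turned without FeMnSi 1 and that of Itgb5 once the slide was a block. The median of the 8 was 0.23, or 0.09 after quantile normalization. Without FeMnSi 1, Itga5 passed (adjusted p = 0.0247), and no chain of the 8 passed in the other 5 fits that leave out 1 array.

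Among 11 tested chains that do not recognise RGD, 3 passed, or 27.3% against 10.7% of all genes. Itga3, a laminin receptor chain, rose 1.62-fold, from processed signals of 65.4, 56.4 and 64.3 in FeMnSi to 97.5, 89.8 and 82.4 in De-HA (log2 difference 0.70 ± 0.12, limma adjusted p = 0.0189). Itga9 rose by 0.47 ± 0.11 (adjusted p = 0.0404), and Itgb2, the leukocyte integrin beta chain, fell by 0.40 ± 0.10 (adjusted p = 0.0463). The median of the 11 was -0.00025, beside 0.10 for all genes. None of the 3 passed once the slide was a block (limma adjusted p = 0.127, 0.255 and 0.221). Itga9 and Itgb2 passed in just 1 of the 6 fits that leave out 1 array, the one without FeMnSi 1, and Itga3 passed without FeMnSi 1 and without FeMnSi 2; leaving out any De-HA array gave a count of 0, and leaving out FeMnSi 1, 2 or 3 gave 5, 1 or 0.

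**Figure D4:**
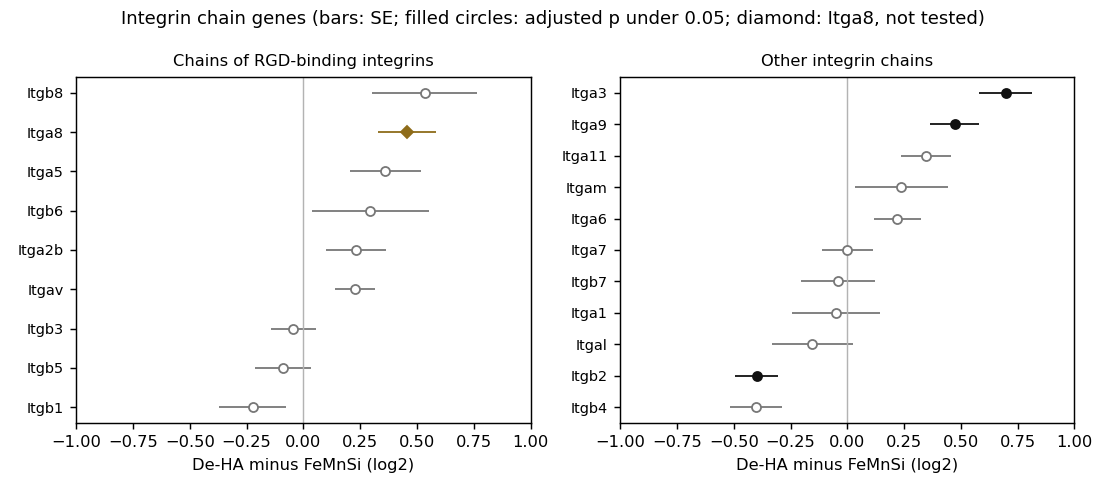
Log2 difference of De-HA minus FeMnSi (horizontal axis, bars are the SE, n = 3 per group) for integrin chain genes, with chains of RGD-binding integrins on the left and other chains on the right. Filled circles passed an adjusted p of 0.05 in limma and the diamond is Itga8, which was not tested; Itgb1 lies at -0.22 and Itga8 at 0.46.

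Genes around GDNF, the growth factor whose expression depends on nephronectin and its receptor in the embryonic kidney, were mostly measured here. Gdnf itself rose 1.85-fold, with processed signals of 613, 708 and 510 in De-HA against 343, 375 and 384 in FeMnSi (log2 difference 0.88 ± 0.10, limma adjusted p = 0.00750, 0.90 against FeMnSi 1 alone). All De-HA arrays were above all FeMnSi arrays, as for 25.4% of all genes tested. Gfra1, which encodes the GDNF co-receptor, was dim and rose by 0.67 ± 0.13 (adjusted p = 0.0264), with signals of 30.1, 29.1 and 20.9 in De-HA and 18.1, 19.6 and 18 in FeMnSi. Ret, the signalling receptor, was well above background on 3 of the 6 arrays and did not pass, at -0.46 ± 0.50 (adjusted p = 0.534); FeMnSi 1 gave 41.9, and the other 5 arrays gave 10.1 to 15.0. With the slide as a block, which rests on that array, Ret gave -1.68 and an adjusted p of 0.0495, and without it the difference was 0.15. Of the genes tied to this axis, Bmp4, a growth factor that restrains budding, rose by 0.64 ± 0.10 (adjusted p = 0.0166), and Grem1, which encodes a BMP antagonist, fell by 0.92 ± 0.11 (adjusted p = 0.00894). Spry1, a feedback inhibitor of receptor tyrosine kinase signalling, rose by 0.41 ± 0.10 (adjusted p = 0.0455), a call that was lost after quantile normalization (adjusted p = 0.117) and with the slide as a block (0.256). Etv4 and Etv5, the transcription factor genes induced by RET signalling, gave -0.01 ± 0.10 and 0.26 ± 0.10 and did not pass (adjusted p = 0.969 and 0.115), and the sign of Etv4 turned after normexp and with the slide as a block.

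In all, 5 of 15 tested genes of this list passed, 4 higher and 1 lower, against 10.7% of all genes; Sall1 was not tested. The list median was 0.23, or 0.09 after quantile normalization. Leaving out De-HA 1, 2 or 3 gave counts of 3, 3 or 2, and leaving out FeMnSi 1, 2 or 3 gave 7, 3 or 1. Gdnf passed in all 6 of these fits (adjusted p up to 0.0454). Ret was the 1 gene past the threshold once the slide was a block, and Gdnf then had an adjusted p of 0.0550. Grem1 and Bmp4 did not pass without De-HA 3 (adjusted p = 0.0514 and 0.0748) or without FeMnSi 3 (0.0511 and 0.0756), and Gfra1 passed only without De-HA 3 and without FeMnSi 1. Of these 6 fits Spry1 passed in the one without FeMnSi 1 (adjusted p = 0.0299), and had 0.0842 to 0.162 in the others. Gfra1 did not pass after quantile normalization (adjusted p = 0.0622).

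**Figure D5:**
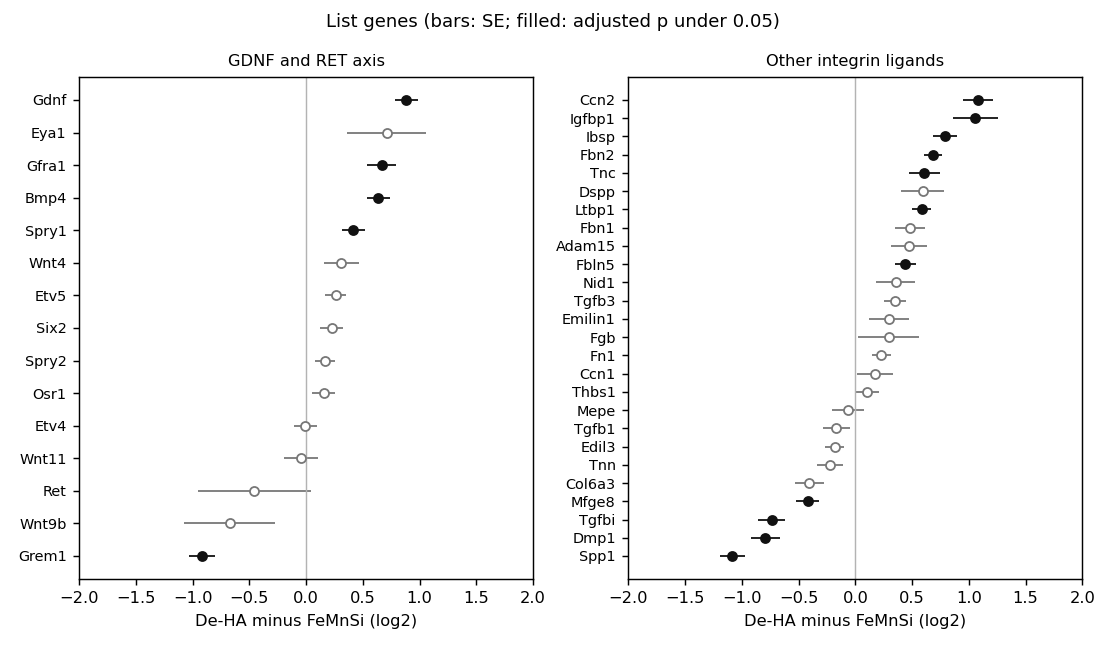
Log2 difference of De-HA minus FeMnSi (horizontal axis, bars are the SE, n = 3 per group) for the tested genes of the GDNF and RET axis on the left and of other integrin ligands on the right. Filled points passed an adjusted p of 0.05 in limma; Gdnf lies at 0.88 and Grem1 at -0.92, and on the right Ccn2 lies at 1.08 and Spp1 at -1.09.

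Other integrin ligands passed the test in both directions. The list was drawn up as matrix and secreted proteins that carry RGD, but it also holds Ccn1, Ccn2 and others that bind integrins through other sequences. Of 26 tested, 7 were called higher and 4 lower, or 42.3% against 10.7% of all genes, with a median of 0.30 (0.18 after quantile normalization). Ccn2, which encodes a matricellular protein also known as connective tissue growth factor, rose 2.12-fold, from processed signals of 437, 593 and 640 in FeMnSi to 1079, 1025 and 1017 in De-HA (1.08 ± 0.13, limma adjusted p = 0.00813). Fbn2, encoding a fibrillin of elastic microfibrils, rose by 0.68 ± 0.08 (adjusted p = 0.00744), and Ibsp, encoding bone sialoprotein, rose by 0.79 ± 0.11 (adjusted p = 0.0112), though its other probe gave 0.17. Spp1, encoding osteopontin, fell by 1.09 ± 0.11 (adjusted p = 0.00527), from 23467, 28960 and 24935 in FeMnSi to 11594, 10112 and 10788 in De-HA. Fn1, encoding fibronectin, did not pass (0.23 ± 0.08, adjusted p = 0.111) and its sign turned after quantile normalization, at -0.16, in the series matrix, at -0.16, and after normexp, at -0.18. Vtn, encoding vitronectin, was well above background on none of the 6 arrays. With the slide as a block 4 of the 26 passed, among them Ccn2 and Spp1 but not Fbn2 and Ibsp (limma adjusted p = 0.0514 and 0.0822). The list's count became 6, 4 or 4 on leaving out De-HA 1, 2 or 3, and 18, 7 or 4 on leaving out FeMnSi 1, 2 or 3. Ccn2, Fbn2 and Spp1 passed in each of these fits, and Ibsp did not without De-HA 3 or FeMnSi 3 (adjusted p = 0.0560 and 0.0563).

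Basement membrane genes, among which nephronectin and the Fraser proteins are placed in tissues, were called at a share near that of all genes. Of 27 tested, 3 were called higher and 1 lower, or 14.8% against 10.7%, with a median of 0.20 (0.10 after quantile normalization). Smoc2, encoding a calcium-binding matrix protein, rose 1.95-fold (0.97 ± 0.12, limma adjusted p = 0.00829), with signals of 77.3, 106 and 79.3 in De-HA and 46.1, 54.2 and 48.8 in FeMnSi. Col4a6, a collagen IV chain gene, rose by 0.53 ± 0.10 and Lama4, a laminin chain gene, by 0.42 ± 0.08, while Col18a1, which also yields endostatin, fell by 0.53 ± 0.12. The core genes Hspg2 (perlecan, 0.32 ± 0.10), Nid1 (nidogen, 0.36 ± 0.17) and Agrn (agrin, 0.17 ± 0.10) did not pass, with limma adjusted p-values of 0.0790, 0.189 and 0.278. By their other probes these genes gave 0.44, 0.03 and 0.11 in the same order. No gene of the list passed once the slide was a block. The count was 1 without any one De-HA array and 13, 2 or 1 when FeMnSi 1, 2 or 3 was left out. Smoc2 passed in all 6 of these fits, Col4a6 and Lama4 passed without FeMnSi 1 alone, and Col18a1 passed without FeMnSi 1 and without FeMnSi 2. Col4a6 did not pass after quantile normalization (adjusted p = 0.0969).

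Of the 5 listed partners of the Fraser proteins, 2 met the filter on dim probes and were tested. Grip1 and Grip2, the intracellular adaptors of the complex, gave -0.33 ± 0.23 and 0.08 ± 0.55 and did not pass (limma adjusted p = 0.328 and 0.932). Grip1 was dim, at 9.23 to 13.0 in De-HA and 12.4 to 20.1 in FeMnSi, and well above background on 2 arrays of each group. The sign for Grip2 turned under the other scalings. It was 72.7 on De-HA 1 and 16.4 to 41.1 on the other 5 arrays. Vwa2 and Hmcn1 were well above background on none of the 6 arrays, and Frem3 did not meet the filter on dim probes. In the EGF family, whose receptor the EGF-like repeats of nephronectin are reported to engage, the ligand genes Ereg and Btc fell by 0.67 ± 0.13 and 1.01 ± 0.20 (limma adjusted p = 0.0294 and 0.0301), and Btc was dim in De-HA, at 12.2 to 14.9 and well above background on 2 of its 3 arrays. The receptor gene Egfr gave 0.40 ± 0.12 by its brightest probe (adjusted p = 0.0772), and 0.28 to 0.49 over its 3 probes. The 2 falls were all that passed of 9 tested genes (22.2% against 10.7% of all genes), whose median was 0.05. With the mean of each gene's probes Egfr passed too (0.39 ± 0.08, limma adjusted p = 0.0326), and the list's count was 3. Neither Ereg nor Btc passed once the slide was a block (limma adjusted p = 0.0840 and 0.170), and among fits that leave out 1 array they passed without FeMnSi 1 alone, where 7 genes of the list did.

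Some markers of other cell types differed between the groups too; shares called are set against the 10.7% of all genes. Itga8 is also known from smooth muscle and related contractile cells, and 6 of 8 tested smooth muscle markers were called higher (75%), of which 4 were called once the slide was a block. The calls of Lmod1 and Cnn1 were not kept then, and both were dim, with signals of 12.3 to 35.8 and of 16.3 to 24.6. Smtn and Des were not called (0.50 ± 0.23 and -0.01 ± 0.14), and Myh11 did not meet the filter on dim probes. The summed scaled signal of the list was 92.8 to 99.3 in De-HA against 37.1 to 50.1 in FeMnSi. Acta2, encoding smooth muscle actin, was bright, with 20744, 21025 and 19019 in De-HA and 6928, 8259 and 8226 in FeMnSi (limma adjusted p = 0.000937), while Myocd, the muscle co-activator gene, was well above background on no array. Of the epithelial markers, which matter because nephronectin is made by many epithelia, 1 of 8 tested was called higher (12.5%), which was Pax8. Of these 8, 7 had a difference above 0. Epcam gave 0.88 ± 0.22 and did not pass (limma adjusted p = 0.0515), beside 0.40 ± 0.08 for Pax8. Krt8, Krt18 and Grhl2 did not meet the filter on dim probes, and the summed signal of the list was 0.404 to 0.485 in De-HA against 0.308 to 0.394 in FeMnSi.

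Of 10 endothelial markers 3 were tested, and Kdr and Esam were called higher (66.7%), with a summed signal of 0.899 to 1.02 in De-HA against 0.718 to 0.730 in FeMnSi; Cdh5, Tek, Tie1, Emcn and Erg were well above background on no array. Of 9 myeloid markers on the array 8 were tested, of which Adgre1 and Ptprc were called higher and Lyz2 lower (37.5%), and Tyrobp was well above background on no array. Their summed signal was 4.83 to 5.34 in De-HA against 3.61 to 4.78 in FeMnSi, and Itgam, with signals of 1330 to 2535, did not pass. No epithelial, endothelial or myeloid call was kept once the slide was a block. Of 6 tested adipocyte markers Fabp4 alone was called, lower in De-HA (16.7%) and also once the slide was a block. Fabp4 stood at 5.09%, 3.94% and 3.65% of the 75th percentile in De-HA and at 16.4%, 18.5% and 15.3% in FeMnSi. Of the 6, 4 had a difference above 0, and their median was 0.15 (-0.01 after quantile normalization). The summed signal of the list, which includes Fabp4, was 0.457 to 0.460 in De-HA against 0.554 to 0.587 in FeMnSi. Adipoq and Cidec were well above background on no array. The part of these genes in the values of Npnt, Itga8 and Frem2 was not tested.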

How the data were processed

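The submitters' processing notes name Agilent Feature Extraction 11.0.1.1. The deposited scanner files give linear intensity values per spot (processed signal, background-subtracted within each array), which the authors had not scaled between arrays, and 0 or 1 marks per spot, another kind of value that the authors' software set. The authors' series matrix holds log2 values whose columns all have a median of 5.77; their normalization is not given in the sources used here. They served as an alternative. The array design names build mm9, and only the promoter windows carry coordinates, of GRCm38.p6.

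From each log2 processed signal, the log2 of that array's 75th percentile over non-control spots was subtracted. Outlier spots were left out, spots of a probe averaged, and 28186 of 39429 probes kept, those with 3 or more of the 6 arrays well above background. RefSeq accessions named 27234 probes; the 12195 others entered no gene test. The brightest probe stood for a gene, which gave 15545 genes. De-HA (n = 3) was compared with FeMnSi (n = 3) by limma 3.58.1 in R 4.3.3 with Benjamini-Hochberg adjustment over all genes; a probe-level fit gave the SE of the member probes. The code was run on simulated data with known changes, less noise than the De-HA arrays and no slide effect. That run checks the code only and says nothing about the calls here. Genes named in each list were the lowest p-values among those past the threshold (up to 4), or the 2 smallest where none passed, plus genes picked by role; Etv4, Etv5, Ret and Spry1 were added after their values were seen. The members and lists were chosen with earlier results of these data known. The number of arrays limits the precision. Scan times in the headers stood in for slides. The replicate numbers do not pair the samples. Normexp used the median spot signal, in place of the mean signal planned.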

Additional observations from a re-analysis of the deposited data

Results flagged for a closer look

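The Fras1 probe on De-HA 1 gave a processed signal of 315, while the FeMnSi arrays gave 2.64 to 3.17 and De-HA 2 and 3 gave 2.50 and 2.44. It drew attention as a signal in a spot that the comparisons do not use, since Feature Extraction marked it as an outlier. The array carries 1 spot of this probe, so no second spot on De-HA 1 can be set against it.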

How the results depend on the processing

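The alternatives run on the 4 measured member probes kept their direction; taking the mean of the probes of a gene does not apply to single probes. With normexp the differences of the brighter and the other Npnt probe and of Itga8 were 1.75, 1.05 and 0.30. With the slide as a block, and with the arrays of slide 1 alone (added after seeing the data), the brighter Npnt probe and Itga8 gave 1.97 and 0.27. Leaving out 1 array gave 2.18 to 2.49, 1.53 to 1.85, 0.37 to 0.55 and 0.46 to 0.77 for the brighter and the other Npnt probe, Itga8 and Frem2.

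Genes past the threshold numbered 1669, against 180 with the slide as a block, 692 with a replicate block, 519 without the filter on dim probes, 36 on slide 1 alone and 227 to 4615 without 1 array (512, 372 or 234 on leaving out De-HA 1, 2 or 3; 4615, 524 or 227 on leaving out FeMnSi 1, 2 or 3). The lists, in the order GDNF-RET axis, other integrin ligands, basement membrane, other integrin chains and EGF family, had 1, 4, 0, 0 and 0 members called with the slide as a block, 3, 7, 1, 1 and 0 with the replicate block and 3, 7, 1, 0 and 0 without the filter. Without 1 array they had 1 to 7, 4 to 18, 1 to 13, 0 to 5 and 0 to 7, and the RGD-binding chains had 0 to 1. The GDNF-RET count was 3 after quantile normalization, in the series matrix and after normexp, and the basement membrane count was 2 with median scaling. Same-numbered samples did not deviate together (correlations of 0.008, -0.11 and 0.12), so the replicate block rests on a number only.

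Among named genes, signs turned for Fn1 (-0.16 after quantile normalization, -0.16 in the series matrix, -0.18 after normexp), Grip2 (-0.065, -0.071 and -0.038 in the same order, -0.011 with median scaling, and -0.59 to 0.43 without 1 array, below 0 without De-HA 1 and, at -0.16, without FeMnSi 1), Itgb3 (-0.11 to 0.026 without 1 array, above 0 without FeMnSi 1), Itgb5 and Itgb6 (0.13 and -0.0074 with the slide as a block), Etv4 (0.018 after normexp, 0.063 with the slide as a block, 0.010 with the mean of its probes, and -0.053 to 0.074 without 1 array, above 0 without De-HA 1 or FeMnSi 3) and Ret (-0.81 to 0.15 without 1 array, above 0 without FeMnSi 1). None of these passed in any fit in which its sign turned. Of 18 named genes past the threshold, 5 passed in all 6 fits that leave out 1 array, 14 after quantile normalization and 2 with the slide as a block. Where calls were lost, the cause was not tested. Egfl6, Frem1 and Fras1 are limited by signal at the level of background.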
